A study of Sus scrofa domesticus with 4 samples.

Results

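Major histocompatibility complex (MHC) class II genes were followed in cultured pieces of pig myometrium, the muscular wall of the uterus, kept with or without adiponectin. The set held the 9 pig genes SLA-DRA, SLA-DRB1, SLA-DQA1, SLA-DQB1, SLA-DMA, SLA-DMB, SLA-DOA, SLA-DOB and CD74. They were chosen by name, and every array probe whose RefSeq accession belongs to one of them was taken. This gave 32 of 43603 probes, and 9 of the 3029 genes that could be named on the array. The rule uses no measured value, though the set was proposed with earlier results of these data known. Between 2 and 7 probes read each gene: 7 for SLA-DRA and SLA-DQA1, 4 for SLA-DRB1 and SLA-DQB1, and 2 for each of the others. Probes of a gene share their target and were not treated as replicates.

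Myometrium came from 4 mature gilts, Large White x Polish Landrace crosses of 7 to 8 months and 120 to 130 kg, on days 15 to 16 of gestation. Slices 3 mm thick were held in culture medium for 2 h and then cultured for another 24 h with adiponectin at 10 µg/ml (treated) or without any addition (untreated). Adiponectin is a hormone secreted by fat tissue, and the study asked how it alters gene expression across the genome in this tissue. RNA was compared on 4 Agilent 2-colour arrays, each with 1 treated and 1 untreated RNA, and the dyes were swapped between arrays: Cy5 marked the treated RNA of arrays 1 and 3, Cy3 that of arrays 2 and 4. Which gilt gave which array is not in the labels, nor whether a single animal gave both RNAs of an array, and cultures were set up in duplicate. The errors and p-values below therefore cover the differences among 4 arrays, some of which may be technical. An explant is removed from its blood supply, and it keeps whatever immune cells were in the slice.

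MHC class II molecules are pairs of an alpha and a beta chain that display peptides from engulfed or endosomal proteins to CD4+ T cells. DR and DQ are the displaying molecules. The invariant chain CD74 fills their peptide groove during assembly and steers them to endosomes, where DM removes its last fragment and loads peptides, and DO holds DM in check. Macrophages, dendritic cells and B cells carry class II constitutively, and interferon gamma can induce it in other cells, in human and mouse also in endothelium. Around this stage of pregnancy in the pig the conceptuses begin to attach to the uterine wall.

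The values below are log2 ratios of treated over untreated signal, after background correction and loess normalisation within each array. Testing required signal well above background on 3 or more of the 4 arrays in at least one condition, and p-values were adjusted over all 22133 tested probes. Between 46.1% and 63.1% of the spots of a channel were well above background, and no spot was saturated. Of the class II probes 30, from 8 genes, passed this filter. Both SLA-DOB probes were not well above background on any array in either condition, so no fold is given for the DO beta chain. SLA-DRB1 and the DQ genes are polymorphic and have close relatives in the same region, including pseudogenes, so a probe signal may hold RNA of more than 1 gene or may depend on the allele.

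No class II probe passed the test. Of the 30 tested probes, 0 reached an adjusted p under 0.05 in limma, against 0% of all 22133 tested probes, where the lowest adjusted value was 0.959. Before adjustment, 1 of the 30 class II probes was lower and 0 were higher at p under 0.05, beside 1.69% of all tested probes lower and 3.43% higher (5.12% in either direction). Those shares correspond to 375 and 759 probes, and to 2251 and 222 when arrays were centred on their median in place of loess. The fitted change lay below 0 for 29 of the 30 class II probes, where 49.4% of all tested probes lay below 0. The median class II change was -0.12 over the 30 probes and -0.18 over the brightest probe of each of the 8 genes. The same medians were 0.00 over all tested probes and -0.01 over 2134 named genes. Among the 7247 tested probes brighter than the median class II probe, 46.7% were below 0. Class II probes were therefore nearly all on the low side by small amounts, none of which could be told from 0 after adjustment. Without array 3 the median over the 30 probes was -0.045, and without array 4, the only array of the second slide, it was -0.18.

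Agilent's own log ratio, which the deposited files carry, put 27 of the 30 probes below 0 with a median of -0.21. Array 4 had a spatial trend in the loess ratios, with a median of 0.253 over the bright probes in its top block of rows against -0.039 in Agilent's ratio. In those rows lie 7 class II probes, and on array 4 their median was 0.30 with loess and -0.12 with Agilent's ratio. Loess within 32 blocks of the array, chosen after seeing this trend, gave 28 of 30 probes below 0 and a median of -0.15. Agilent's ratio and the block value are given beside the fitted change of each gene's brightest probe.

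**Figure D1:**
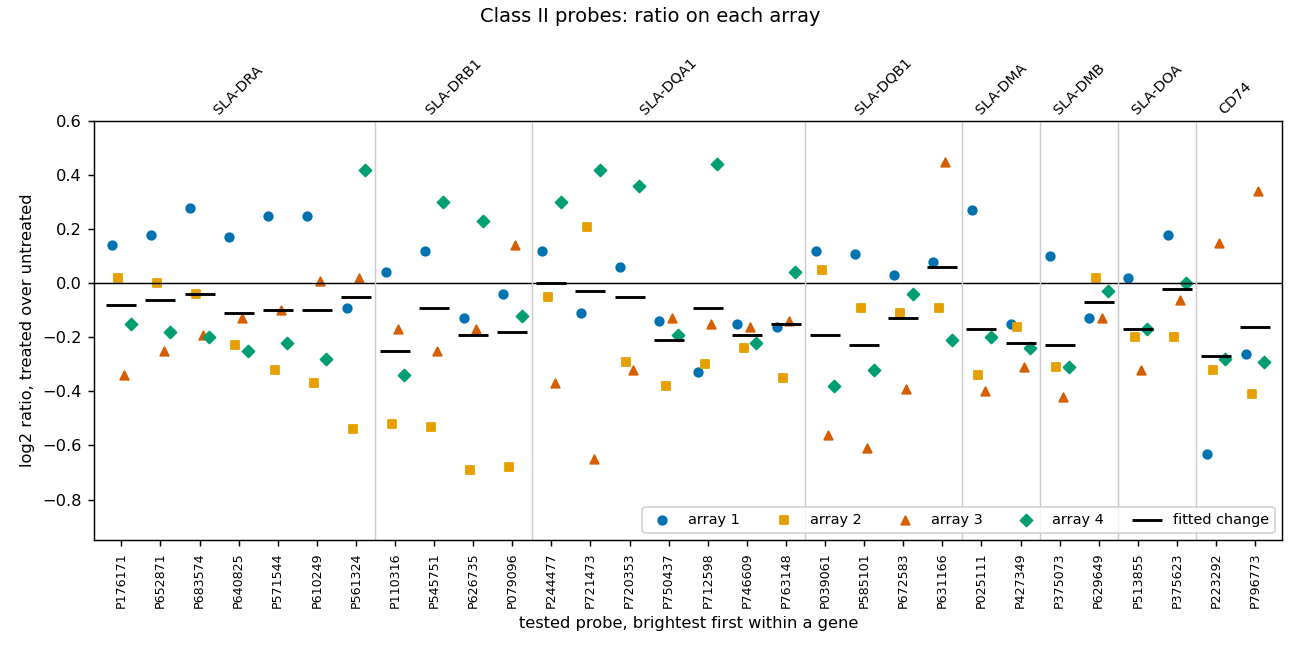
Log2 ratio of treated over untreated signal (vertical axis) on each of the 4 arrays for the 30 tested class II probes (horizontal axis, grouped by gene, brightest probe first), with the fitted change as a black bar. The black bar lies below 0 for 29 of 30 probes, while array 1 has 12 of 30 probes below 0 and array 2 has 26.

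The DR alpha chain SLA-DRA, which pairs with every DR beta chain, had ratios of 0.14, 0.02, -0.34 and -0.15 on arrays 1 to 4 at its brightest probe. Arrays 1 and 2 were at or above 0 and arrays 3 and 4 below. The fitted change was -0.08 ± 0.11 (SE, n = 4 arrays; 95% interval -0.36 to 0.20; limma adjusted p = 0.999), with -0.04 from Agilent's ratio and -0.07 from block loess. All 7 SLA-DRA probes had fitted changes between -0.11 and -0.04, a narrower range than the spread of any of them over arrays. On array 1, 6 of the 7 were above 0.

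The DR beta chain SLA-DRB1 carries most of the peptide-binding variation of DR. Its brightest probe had ratios of 0.04, -0.52, -0.17 and -0.34. The fitted change was -0.25 ± 0.09 (SE, n = 4), which is 1.19-fold lower, with a 95% interval of -0.48 to -0.01 and a limma adjusted p of 0.959. This probe is the one with an unadjusted p under 0.05 (0.042), and Agilent's ratio gave -0.25 with an unadjusted limma p of 0.144. Block loess gave -0.23. All 4 SLA-DRB1 probes were below 0, from -0.25 to -0.09 with loess and from -0.35 to -0.20 with Agilent's ratio. The lowest ratios were on array 2, where the 4 probes read -0.69 to -0.52, while they read -0.13 to 0.12 on array 1.

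The DQ alpha chain SLA-DQA1 had ratios of 0.12, -0.05, -0.37 and 0.30 at its brightest probe, above 0 on 2 arrays and below on 2. The fitted change was -0.0026 ± 0.12 (SE, n = 4; 95% interval -0.31 to 0.30; limma adjusted p = 1.0), with -0.026 from Agilent's ratio and -0.12 from block loess. Its 7 probes ran from -0.21 to -0.0026. Array 3 was below 0 at all 7 probes (-0.65 to -0.13), while array 4 was above 0 at 5 of 7. Of these 7 probes, A_72_P750437 (-0.14, -0.38, -0.13 and -0.19) and A_72_P746609 (-0.15, -0.24, -0.16 and -0.22) were below 0 on every array. Their fitted changes were -0.21 ± 0.09 and -0.19 ± 0.08.

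The DQ beta chain SLA-DQB1 read 0.12, 0.05, -0.56 and -0.38 at its brightest probe. Arrays 1 and 2 lay close to 0, and arrays 3 and 4 lay well below. The fitted change was -0.19 ± 0.15 (SE, n = 4; 95% interval -0.56 to 0.17; limma adjusted p = 0.991), with -0.16 from Agilent's ratio and -0.18 from block loess. Without array 3 it was -0.022, without array 4 it was -0.083, and without arrays 1 or 2 it was -0.36 or -0.30. The other two bright probes gave -0.23 and -0.13. The fourth, A_72_P631166, was the exception among the 30, at 0.06 ± 0.10, and it was well above background on 3 arrays in untreated and 2 in treated RNA.

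The invariant chain CD74 had array values unlike those of DR and DQ at their brightest probes. It read -0.63, -0.32, 0.15 and -0.28 on arrays 1 to 4, low on array 1 where the DR and DQ brightest probes were above 0, and above 0 on array 3 where they were below. The second CD74 probe was likewise above 0 on array 3 alone, with -0.26, -0.41, 0.34 and -0.29. The fitted change was -0.27 ± 0.14 (SE, n = 4), or 1.21-fold lower, with a 95% interval of -0.63 to 0.09 and a limma adjusted p of 0.961. Agilent's ratio gave -0.33 and block loess -0.25. Without array 1 the change was -0.073, and without array 3 it was -0.47. Some dimmer DR and DQ probes were nearer to CD74. SLA-DRB1 probe A_72_P079096 had the signs of CD74 on every array (-0.04, -0.68, 0.14 and -0.12). On array 1, 5 of 7 SLA-DQA1 probes were below 0.

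The brightest probes of the peptide editor DM read alike on arrays 2 to 4. SLA-DMA, the alpha chain, had ratios of 0.27, -0.34, -0.40 and -0.20, and SLA-DMB, the beta chain, 0.10, -0.31, -0.42 and -0.31. At these brightest probes array 1 was above 0 for both and the other 3 arrays were below. The fitted changes were -0.17 ± 0.13 (SE, n = 4; interval -0.50 to 0.16; limma adjusted p = 0.996) and -0.23 ± 0.11 (interval -0.52 to 0.05; limma adjusted p = 0.96). Agilent's ratio gave -0.18 and -0.31, and block loess -0.14 and -0.25. Without array 3 the changes were 0.0012 and -0.10, and without array 1 they were -0.34 and -0.37. The second SLA-DMB probe read -0.13, 0.02, -0.13 and -0.03, with a fitted change of -0.07 ± 0.08. The second SLA-DMA probe was below 0 on all 4 arrays (-0.15, -0.16, -0.31 and -0.24). In all, 3 of the 30 class II probes were below 0 on every array, against 5.38% of all tested probes.

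The DO alpha chain SLA-DOA is part of the inhibitor of DM. Its brighter probe read 0.02, -0.20, -0.32 and -0.17, near 0 on array 1 and lower on the others, with a fitted change of -0.17 ± 0.10 (SE, n = 4; interval -0.41 to 0.08; limma adjusted p = 0.971). Agilent's ratio gave -0.28 and block loess -0.15, and without array 3 the change was -0.083. The dimmer SLA-DOA probe gave -0.02 ± 0.10. Its partner SLA-DOB could not be measured, as said above.

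**Figure D2:**
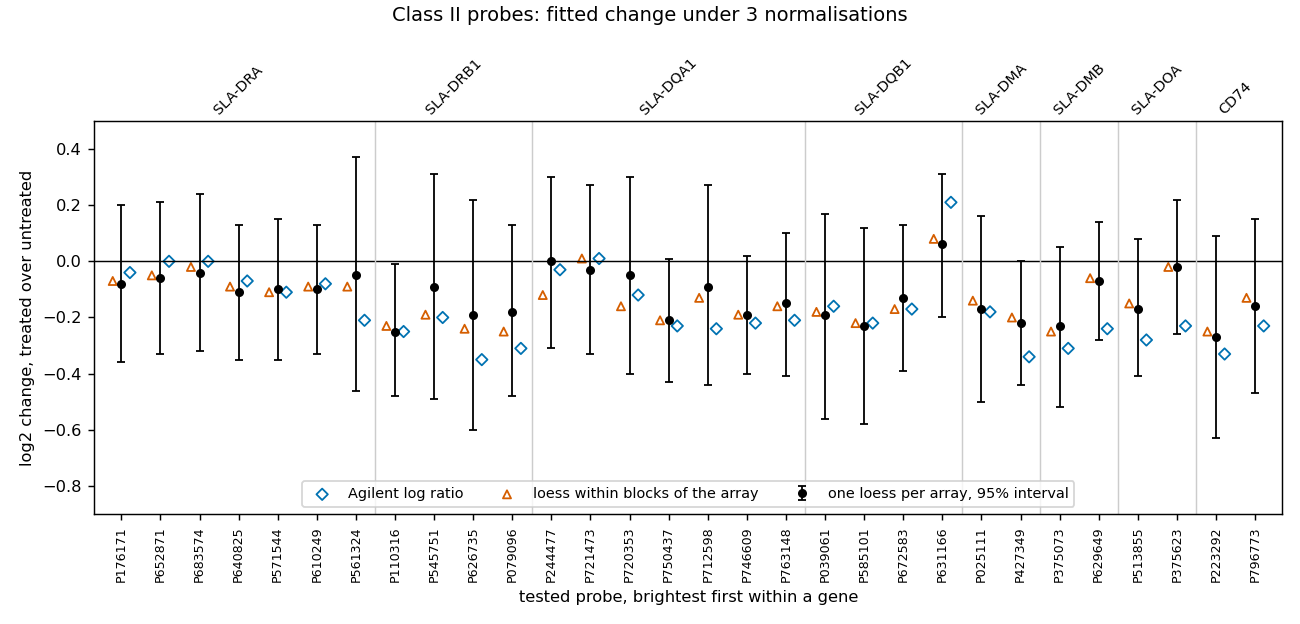
Fitted log2 change of treated over untreated (vertical axis) for the 30 tested class II probes, as black points with 95% intervals, with the same fit on Agilent's log ratio (blue diamonds) and on loess within blocks (orange triangles). The intervals of 29 of the 30 probes include 0.

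The intervals set what these arrays could have shown. Their ends lay between -0.63 and 0.37 over all 30 probes, and the median distance from the fitted change to the end of the interval was 0.28 (0.25 over all tested probes). For the brightest probe of each gene the lower end corresponded to a decrease between 1.24-fold (SLA-DQA1) and 1.55-fold (CD74). A p-value that misses the threshold does not show that the levels were equal.

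Array by array, the median class II ratio was 0.05, -0.26, -0.17 and -0.18, and 12, 26, 24 and 22 of the 30 probes were below 0. Array 1 was the only array with a median above 0, and the ratios of DR, DQ, DM and DO genes did not lie on the same side of 0 across the arrays. Agilent's ratio gave medians of 0.12, -0.38, -0.19 and -0.16. All tested probes had medians of about 0 on each array.

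Class II levels differed more between arrays than between conditions, as did those of 83.6% of all tested probes. SLA-DRA, on the scale of normalised log2 signal, read 12.66, 12.17, 12.23 and 13.29 in untreated and 12.80, 12.19, 11.89 and 13.15 in treated RNA of arrays 1 to 4. Both conditions were high on arrays 1 and 4 and low on arrays 2 and 3, and the conditions overlapped. SLA-DRB1 read 11.61, 11.40, 11.05 and 12.61 in untreated and 11.65, 10.88, 10.88 and 12.27 in treated RNA, again highest on arrays 1 and 4. Over arrays the untreated level was 12.59 ± 0.52 for SLA-DRA and 11.67 ± 0.67 for SLA-DRB1 (SD, n = 4), and the treated level was 12.51 ± 0.57 and 11.42 ± 0.67. The untreated level of SLA-DQA1 was 12.52 ± 0.27 and the treated level 12.52 ± 0.48.

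The DQ beta chain SLA-DQB1 and the DM alpha chain SLA-DMA had smaller spreads than the DR genes and the order in part. SLA-DQB1 read 12.55, 12.33, 12.55 and 13.04 untreated and 12.67, 12.39, 11.99 and 12.66 treated. SLA-DMA read 10.25, 10.07, 10.43 and 10.92 untreated and 10.52, 9.73, 10.03 and 10.72 treated. In both genes untreated RNA was highest on array 4, while array 1 was level with array 3 in SLA-DQB1 and below it in SLA-DMA. Treated RNA of both was higher on arrays 1 and 4 than on arrays 2 and 3. SLA-DMB had 10.58 ± 0.36 untreated and 10.35 ± 0.47 treated (SD, n = 4), and SLA-DOA 8.60 ± 0.19 and 8.43 ± 0.30. The brightest probes of SLA-DMB and SLA-DOA had the order in both conditions.

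CD74 read 10.54, 10.31, 9.59 and 10.65 in untreated RNA at its brightest probe, likewise higher on arrays 1 and 4 than on arrays 2 and 3. Its treated level was 9.90, 9.98, 9.74 and 10.37, where array 1 was below array 2. The untreated range of 1.05 was wider than the treated range of 0.62. The second CD74 probe read 9.53, 9.82, 8.78 and 9.95 in untreated RNA, where array 1 was below array 2. Levels of different probes are not on one scale, so these values compare arrays within a gene and not genes with each other.

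**Figure D3:**
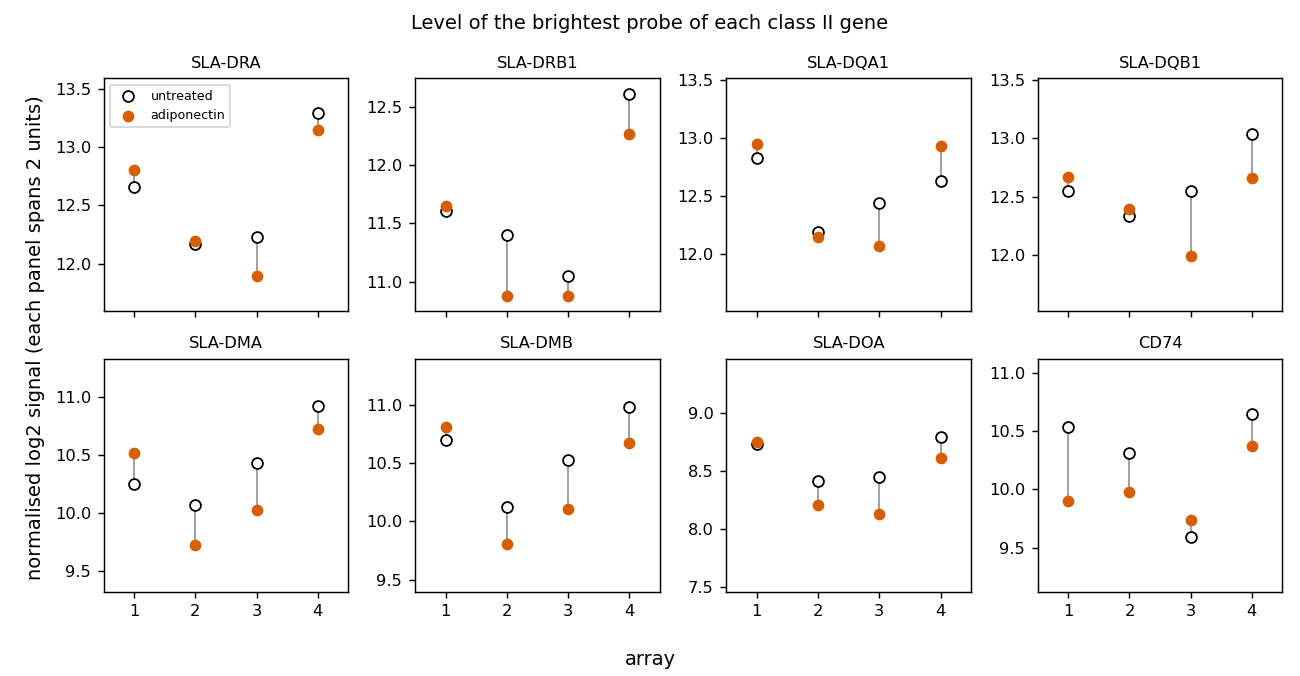
Normalised log2 signal (vertical axis, 2 units high in every panel) of the brightest probe of each tested class II gene on arrays 1 to 4 (horizontal axis), untreated as open and adiponectin-treated as filled circles joined by a line within an array. SLA-DRA and SLA-DRB1 are high on arrays 1 and 4 in both conditions, and CD74 is lowest in untreated RNA on array 3.

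This order over arrays was shared by most of the set. The untreated level was highest on array 1 or array 4 for 30 of 30 class II probes, against 43.6% of all tested probes, and the treated level for 29 of 30, against 48.6%. In 23 of the 30 probes both conditions were higher on arrays 1 and 4 than on arrays 2 and 3, an order that 4.02% of all tested probes had. These were 6 of 7 SLA-DRA, 4 of 4 SLA-DRB1, 6 of 7 SLA-DQA1, 3 of 4 SLA-DQB1, 1 of 2 SLA-DMA, 1 of 2 SLA-DMB, 2 of 2 SLA-DOA and 0 of 2 CD74 probes. The brightest SLA-DQB1 probe is counted by a margin lost in rounding, with 12.55 untreated on both array 1 and array 3. The order was noticed in these same values, so the shares describe it and are no test.

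Arrays that carried a condition in the same dye gave the size of the difference. Untreated class II probes were higher by a median of 0.42 on array 1 than on array 3 and by 0.53 on array 4 than on array 2, where all tested probes had medians of 0.02 and 0.00. The treated medians were 0.65 and 0.80, against 0.00 for all tested probes in both. For 29 of 30 class II probes the range of the untreated level over arrays was wider than the largest gap between conditions within an array, which held for 83.6% of all tested probes. Whether arrays 1 and 4 hold tissue of particular gilts is not given in the labels and was not tested. In bulk tissue, fewer cells of a type and less class II RNA per cell cannot be told apart.

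Genes around class II presentation were read from lists chosen by role, with the brightest tested probe standing for a gene, and 0 genes of any list passed the test. The regulators of class II transcription were hardly covered: 2 of 10 were named on the array, NFYB, a subunit of the promoter-binding factor NF-Y, and the deacetylase SIRT1, and each had a change of -0.01. The master regulator CIITA and its partner RFX5 were not analysed here.

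Of the interferon gamma route, which induces class II in many cells, 15 of 16 genes on the array were tested. Of these 14 lay below 0, some only just (TAP2 -0.01, JAK1 -0.02), where 54.1% of all tested named genes did. Their median was -0.13, beside -0.01 for all named genes. PSMB8, an immunoproteasome subunit encoded between the class II genes, read -0.42, -0.39, -0.23 and -0.73, below 0 on every array. Its fitted change was -0.44 ± 0.10 (SE, n = 4; unadjusted p = 0.00594, limma adjusted p = 0.959). IRF1, a transcription factor of the route, read -0.11, -0.20, -0.70 and -0.72, with -0.43 ± 0.15 (unadjusted p = 0.0266, limma adjusted p = 0.959). Leaving out array 3 brought the list median to -0.03, and leaving out array 4 to -0.06. IFNG itself, the gene of the cytokine, was not well above background on any array.

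In the assembly Sscrofa11.1, used for gene order only, SLA-DRA, the DR and DQ genes, SLA-DOB, TAP2, PSMB8, TAP1, PSMB9, BRD2, SLA-DMB, SLA-DMA and SLA-DOA follow each other, and CD74 lies on another chromosome. The 5 tested genes that lie among them and are no class II genes, a list added after the values were seen, were all below 0, with a median of -0.13, where 54.1% of all named genes were below 0. All but BRD2 are the same probes as in the interferon gamma list. They were TAP2 (-0.01) and TAP1 (-0.13), the peptide transporter, PSMB8 (-0.44) and PSMB9 (-0.26), of the immunoproteasome, and the chromatin reader BRD2 (-0.05).

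Class I molecules display peptides of the cell's own proteins. The list of class I and related genes had a median of -0.12 over 7 tested genes, 5 of them below 0. It also held the related genes CALR (0.16), CANX (0.01) and CD1.1 (-0.02), while SLA-5 and SLA-6 had -0.12 each. SLA-8 had -0.19 ± 0.09 and SLA-3 had -0.19 ± 0.09 (SE, n = 4; limma adjusted p = 0.96 in both). The brightest SLA-3 probe read below 0 on every array (-0.23, -0.07, -0.13 and -0.31). These brightest probes were the lowest of their genes: the 7 tested SLA-3 probes ran from -0.19 to 0.02 and the 4 tested SLA-8 probes from -0.19 to 0.04. Class I genes are close relatives and their probes may share RNA.

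The list of lysosomal processing held proteases that cut antigens and CD74 into peptides, and also other genes such as lysosomal membrane proteins. It was split, with 7 of 13 tested genes below 0 and a median of -0.07. The protease CTSK had -0.26 ± 0.13 and the lysosomal membrane protein LAMP2 had 0.13 ± 0.09. The thiol reductase IFI30 was well above background but lacked a usable ratio and was not tested. Of the genes for costimulation and for ligands of class II cells, 7 were tested, 4 of them above 0, with a median of 0.02. The inhibitory cytokine IL10 had 0.43 ± 0.25, the checkpoint ligand CD274 0.30 ± 0.20 and the costimulator CD86 0.18 ± 0.13. Leaving out 1 array brought each fitted change near 0: IL10 was 0.05 and CD86 0.03 without array 3, and CD274 was 0.00 without array 1. CD274 read 0.95, 0.13, -0.26 and 0.40 on arrays 1 to 4, so its ratios above 0 were not on array 1 alone. CD4, the coreceptor for class II, was well above background on 1 array at most.

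Markers of the cells that carry class II were read on the same arrays. Of 16 macrophage and monocyte markers on the array 11 were tested, and 10 of these lay above 0, with a median of 0.56. Of all tested named genes 54.1% lay below 0, with a median of -0.01. The scavenger receptor CD163 had 0.87 ± 0.26 (0.39, 0.19, 1.65 and 1.25 on arrays 1 to 4) and the complement receptor VSIG4 0.83 ± 0.25 (0.63, -0.08, 1.92 and 0.84), with a limma adjusted p of 0.959 for both, and without array 3 they were 0.55 and 0.50. The 2 tested CD163 probes ran from 0.46 to 0.87 and the 5 tested VSIG4 probes from 0.17 to 0.83. The brightest probe given here had the highest change in both genes. CD14, a coreceptor for bacterial lipopolysaccharide, had -0.01 ± 0.11. The macrophage median was 0.25, -0.12, 1.65 and 0.63 by array, highest on array 3, where 24 of 30 class II probes were below 0. It was 0.21 without array 3 and 0.30 without array 4. The median macrophage level on arrays 1 to 4 was 10.23, 9.90, 8.79 and 10.34 in untreated RNA. In treated RNA it was 10.55, 9.33, 10.49 and 10.63. Both medians were higher on arrays 1 and 4 than on arrays 2 and 3. Most of the tested markers had this order in untreated RNA, so there it was not particular to class II. In treated RNA most of them lacked it, with array 3 above array 1 in CD163 (10.13 against 10.09) and VSIG4 (10.11 against 9.78). CD209, SIGLEC1, FCGR1A and CD5L, named after their values were seen, were not well above background on any array. The part of macrophage number or state in the class II values was not tested.

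Markers of other cell types were fewer. Of dendritic cell markers 3 were tested, with a median of -0.03 (XCR1, a receptor of cross-presenting cells, -0.07, and the migration receptor CCR7 -0.03). Of 4 B cell markers on the array only the adaptor BLNK was tested, at 0.05 ± 0.13, and MS4A1 and CD79A, named after their values were seen, were well above background on 1 array at most. T and NK cell markers had a median of -0.01 over 4 tested genes, with NKG7 at 0.13 and CD247 at -0.04. Endothelial markers had a median of 0.02 over 6, with ENG at -0.33 ± 0.13 and PECAM1 at 0.28 ± 0.12. All 5 tested smooth muscle markers, with the intermediate filament DES and the actin-binding CNN1, were well above background on every array in both conditions. Their median untreated level lay between 15.65 and 16.12. As testing itself required signal above background, this is no check of the tissue label.

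**Figure D4:**
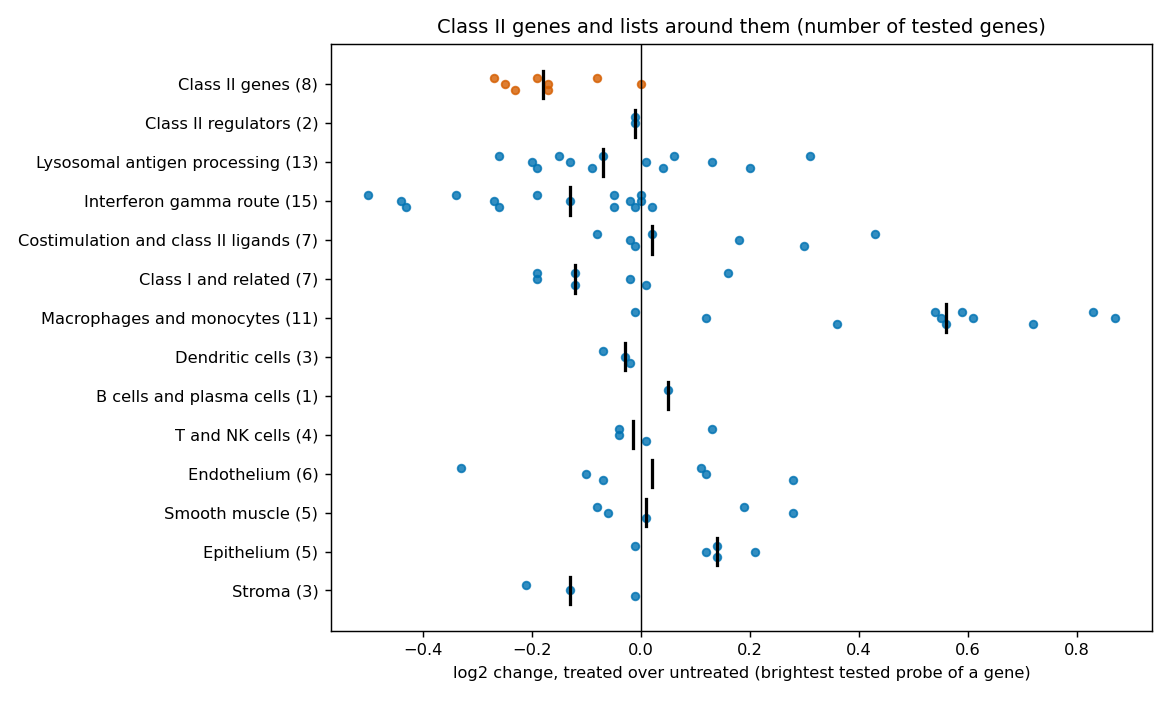
Fitted log2 change of treated over untreated (horizontal axis) of each tested gene, by list (vertical axis, number of tested genes in brackets), with the list's median as a black bar. The class II and interferon gamma lists lie mostly below 0 with medians of -0.18 and -0.13, and the macrophage list lies mostly above 0 with a median of 0.56.

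The 5 named genes whose ratios lay nearest to the class II pattern were found by the root mean square difference over the 4 arrays, among 2126 genes. The class II pattern, the median of the brightest probes, was 0.11, -0.25, -0.36 and -0.24. ATP2A2, the calcium pump of the sarcoplasmic reticulum, was nearest at 0.071, followed by the farnesyltransferase subunit FNTB (0.077), the lipase LIPE (0.084), PDCD4 (0.087) and TMCC1 (0.088). ATP2A2 read 0.09, -0.25, -0.49 and -0.27. With 4 points, such likeness is a description only.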

How the data were processed

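The authors deposited, per the file headers, 1 scanner file per array with median spot and local background intensity for Cy3 and Cy5, made with Agilent Feature Extraction 10.7.3.1. The files also carry a deposited log10 ratio, Cy5 to Cy3, for which, per the file headers, Feature Extraction had subtracted background and normalised dyes. It was exactly 0 for 18.1% to 28.9% of the spots of an array. A deposited series table of log2 ratios matched the Agilent ratio within 0.01 for at least 99.99% of probes well above background, after the sign of arrays 2 and 4 was turned. How it treated dim probes is not given in the sources used here. Dye fields of the labels set direction, although the labelling protocol describes treated RNA in Cy5 only. RNA integrity numbers of 8 to 10 and 825 ng of labelled cRNA per dye are given in the labels. Arrays 1 to 3 share a slide.

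Intensity was corrected with normexp (offset 50) and loess in limma 3.58.1 (R 4.3.3), on median signal because the files hold no mean signal. Control and outlier spots had weight 0 in loess, and spots of a probe were averaged. Probes without a value on an array were left out, 159 of them bright enough otherwise. A treatment and a probe-specific dye coefficient were fitted to all tested probes, two-sided, with Benjamini-Hochberg adjustment, and the moderated SE leaves out the spread that the dye coefficient takes up. The code was tested on simulated data. Levels are loess values scaled between arrays (Aquantile). Of 7125 probes with a RefSeq accession 6700 were named.

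Genes are represented by their brightest tested probe. Named genes are all class II genes, the 2 genes with the smallest p in each list, a few central genes set by name (such as CIITA, IRF1, CD163, CD14, CD86 and CD4), and the 5 nearest in pattern. Some genes that this rule names are not reported here. The members and lists were chosen with earlier results of these data known. The alternatives were Agilent's ratio, the series table, median centring, other background corrections, no dye term, other filters, gene means, leaving out each array, and block loess, which was chosen after seeing the data. The number of arrays limits the precision.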

Additional observations from a re-analysis of the deposited data

Results flagged for a closer look

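In 58 sets of 4 array ratios (the class II probes and the named genes around them), 3 held an array that lay apart from the rest. Chance alone would flag about 2.9 of 58. No class II probe was among them. IL10 read 1.59 on array 3, with the other arrays between -0.09 and 0.17. CNN1, a smooth muscle gene, read 0.43 on array 3, with the others between -0.31 and -0.22. DCN, a proteoglycan of connective tissue, read 0.34 on array 1, with the others between -0.31 and -0.25.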

How the results depend on the processing

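No probe was called under any alternative run, over the class II genes or the whole array. The median over class II probes was -0.29 with median centring, where all named genes had a median of -0.13 and 86.2% of the tested probes brighter than the median class II probe lay below 0. Plain background subtraction turned SLA-DQA1 to 0.0058, and the cause was not tested. Leaving out 1 array gave SLA-DQA1 values from -0.12 to 0.12 (0.083 without array 2, 0.12 without array 3), SLA-DMA from -0.34 to 0.0012 and SLA-DRA from -0.20 to 0.039, the highest of the last pair without array 3. The median ranged from -0.18 to -0.045 over class II probes and from -0.28 to -0.052 over genes, and 21 of 30 probes were below 0 without array 2 or array 3. CD74, SLA-DRB1, SLA-DQB1, SLA-DMB and SLA-DOA stayed below 0 in all 14 alternatives each. These are not 14 separate checks. Leaving out the dye term or changing the filter on dim probes left these fitted changes as they were, and the series table repeated Agilent's ratio. CD74 was -0.073 without array 1, and without array 3 SLA-DQB1 was -0.022, SLA-DMB -0.10 and SLA-DOA -0.083.

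Over the whole array, probes with an unadjusted p under 0.05 numbered 222 higher and 2251 lower with median centring, and 658 lower with no filter on dim probes, against 759 and 375. Without single arrays they ranged from 453 to 1217 higher and from 136 to 801 lower. The slide as a block is the fit without array 4. No pairing by gilt was possible because the labels give a single group and tie no array to a gilt. Each array compares treated with untreated RNA and was its own pair. Dim genes such as SLA-DOA and SLA-DOB are limited by signal over background.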

Other observations

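Cell type lists outside antigen presentation differed between arrays, with 0 genes called in each. The 5 tested smooth muscle markers had median ratios of -0.48, -0.14, 0.95 and -0.28 on arrays 1 to 4, above 0 on array 3 alone, and a median fitted change of 0.01 (DES 0.28 ± 0.25, CNN1 -0.08 ± 0.13). The 5 epithelial markers had medians of 0.02, 0.62, -0.47 and 0.20, with a fitted median of 0.14 (KRT8 0.21 ± 0.12, SPP1 0.12 ± 0.11). Their median untreated level was 8.13, 10.27, 9.55 and 8.52, low on arrays 1 and 4, where the DR and DQ genes were high. The 3 stromal markers had a fitted median of -0.13 (LUM -0.21 ± 0.18, DCN -0.13 ± 0.13).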
